A study of Mus musculus with 5 samples.

Results

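The lncRNA transcripts at the Malat1 and Miat loci were examined in mouse testis after exposure to triptolide, a diterpenoid of the thunder god vine that inhibits transcription by RNA polymerase II. The members were chosen by position and locus: all transcripts of the lncRNA table on chromosome 19 that start between 5750000 and 5860000, the region of Malat1 and Neat1, and all transcripts of locus XLOC_144822 on chromosome 5, at Miat. This gave 11 of 33057 lncRNA transcripts, at 4 of 16356 loci. To them was added ENSMUST00000172812, the Malat1 entry among 103639 entries of the mRNA table. The choice was made with the difference between triptolide and control already known for these loci, so that difference is described here without a test.

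Both groups were male C57BL/6J mice of 10 weeks at purchase, and the 3 triptolide libraries came from mice dosed into the stomach with 50 µg/kg body weight each day. The 2 control libraries came from mice given saline, and testes were taken at 35 days in both groups. The labels give 6 mice per group and do not state how mice map to libraries, so the spread between libraries may be technical in part. Libraries were made from total RNA after rRNA depletion and kept the strand, per the labels' protocols.

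Malat1 is a long, mostly unspliced nuclear RNA that gathers in nuclear speckles, the storage sites of splicing factors. Neat1, its neighbour, is the scaffold of paraspeckles, and Miat (Gomafu) is a nuclear RNA that binds splicing factors. The 3′ ends of Malat1 and of the long form of Neat1 are not polyadenylated in the usual way: RNase P cuts them and a triple helix protects them, and the piece cut off Malat1 becomes the small cytoplasmic mascRNA. Because rRNA was depleted and poly(A) was not selected, RNA without a poly(A) tail could also enter these libraries.

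The rows found at these positions matched the names only in part. The window on chromosome 19 held 6 transcripts at 3 loci, which were Malat1 itself (XLOC_100501, 2 transcripts), a locus on the other strand inside Malat1 (XLOC_097999, 1 transcript) and Frmd8os (XLOC_098005, 3 transcripts), a lncRNA on the strand opposite to Frmd8. None of these 6 rows lay within Neat1, so Neat1 was not analysed here. The 5 transcripts of XLOC_144822 ran on the plus strand, whereas the RefSeq promoter of Miat is on the minus strand. The authors classed all 5 as antisense, and 3 of them carry the ID of Gm26953, a lncRNA gene listed as known. The other 2 are new and carry the ID of Miat. Among new antisense transcripts in the table, 0 of 4217 whose symbol has a RefSeq promoter ran in the direction of that promoter, against 1891 of 1893 known antisense transcripts. The locus is therefore called antisense to Miat below, and its values are not read as Miat levels.

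The RefSeq promoter windows of Malat1 and Miat, 250 bases before to 50 bases after the start, show the strand from which each gene is read and the motif letters that each window holds. Both are from GRCm38.p6 and are printed 5′ to 3′ on the minus strand, Malat1 at chr19:5802623-5802922 and Miat at chr5:112228899-112229198. The windows were searched on both strands for the cyclic AMP response half-site TGACGT, for the GC box with the letters GGGCGG, for the CAAT box with the letters CCAAT and for the TATA box with the letters TATAAA. Capitals mark the matches, none of which overlapped another.
Malat1: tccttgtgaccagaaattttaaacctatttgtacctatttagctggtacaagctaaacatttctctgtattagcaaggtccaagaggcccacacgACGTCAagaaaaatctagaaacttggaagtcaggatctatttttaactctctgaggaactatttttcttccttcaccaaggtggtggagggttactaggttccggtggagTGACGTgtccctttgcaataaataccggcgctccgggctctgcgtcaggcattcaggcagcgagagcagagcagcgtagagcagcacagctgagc
Miat: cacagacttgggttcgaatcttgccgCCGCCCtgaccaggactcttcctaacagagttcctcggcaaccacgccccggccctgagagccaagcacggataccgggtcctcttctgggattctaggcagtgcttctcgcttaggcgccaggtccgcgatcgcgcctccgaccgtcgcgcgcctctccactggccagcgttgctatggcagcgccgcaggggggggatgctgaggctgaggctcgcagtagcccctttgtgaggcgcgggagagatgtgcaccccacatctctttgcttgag

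The Malat1 window held the half-site once on the forward strand, with its first base 45 bases before the start, and once on the reverse strand at 155 bases before the start. Of 32851 RefSeq mouse promoters of this length, 7.51% held this half-site at least once and 2.16% at least 2 times. The Miat window held 1 GC box, on its reverse strand at 224 bases before the start, as 35.7% of promoters did at least once. The CAAT box and TATA box letters, present in 37.4% and 13.6% of promoters, were in neither window. The Miat window was richer in G and C (64.3%) than that of Malat1 (47.0%), with a median of 52.7% over all promoters. These letter matches are descriptions and were not tied to binding of any factor.

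**Figure D1:**
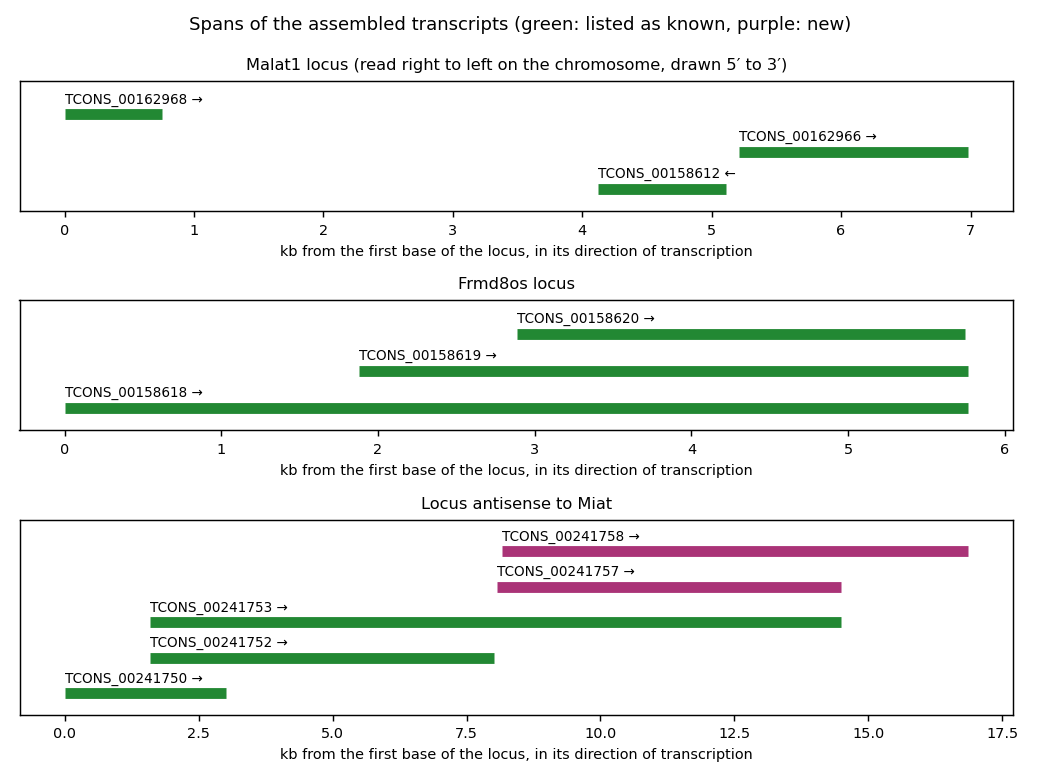
Spans of the 11 assembled lncRNA transcripts, in kb from the first base of each locus in its direction of transcription, with arrows for the direction of each transcript. The 2 Malat1 transcripts sit at opposite ends of the locus and do not overlap, and the 2 new transcripts antisense to Miat overlap TCONS_00241753 and neither of the other Gm26953 transcripts.

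Malat1 RNA was the most abundant member and was higher in every triptolide library than in either control. In the lncRNA table the Malat1 locus (chromosome 19, 5795691 to 5802671, minus strand) had 2503 and 3024 CPM in control 1 and 2, where CPM are counts scaled to the total of the table. It had 11671, 8059 and 8749 CPM in triptolide A, B and 3, where A and B are the libraries whose columns share a header. The lowest triptolide library was thus well above the higher control. The SD was 369 CPM around a mean of 2764 CPM in control (n = 2) and 1918 CPM around a mean of 9493 CPM in triptolide (n = 3). The log2 fold change was 1.78 ± 0.18 (SE), from an edgeR fit over 6888 loci in which 140 loci (2.03%) had a higher value. Among all tested loci, 19.7% had every triptolide library above every control, and 5.01% rose and 2.26% fell past an adjusted p of 0.05. By counts Malat1 ranked 42 and 33 among all loci in control 1 and 2 and 4, 5 and 5 in triptolide A, B and 3. Its gain of 6729 CPM between group means was the largest of the 16356 loci, and the locus took 0.250% and 0.302% of lncRNA counts in control against 0.806% to 1.17% after triptolide.

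The mRNA table, counted separately, holds Malat1 as a single entry whose span of 6983 bases equals the RefSeq length of the gene. The files do not pair this ID with a name, and 6 entries share that span, of which the other 5 reached at most 151 counts in a library. The entry had 19650 and 25512 expected counts in control 1 and 2 and 69115, 56403 and 62306 in triptolide 1, 2 and 3. Relative to the table totals these were 1272 and 1433 CPM for the controls, against 3880, 3132 and 3189 CPM after triptolide, again without overlap. The log2 fold change was 1.21 ± 0.19 (SE), and group means differed 2.51-fold. By counts the entry ranked 51 and 41 in control 1 and 2 and 5, 7 and 5 in triptolide 1, 2 and 3. Every triptolide library lay above every control for 27.1% of tested entries, 0.0171% rose past an adjusted p of 0.05 in edgeR, and 5067 of 35123 (14.4%) had a higher log2 fold change. The difference was thus smaller in the mRNA table than at the lncRNA locus (3.44-fold), on scales set by different table totals.

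**Figure D2:**
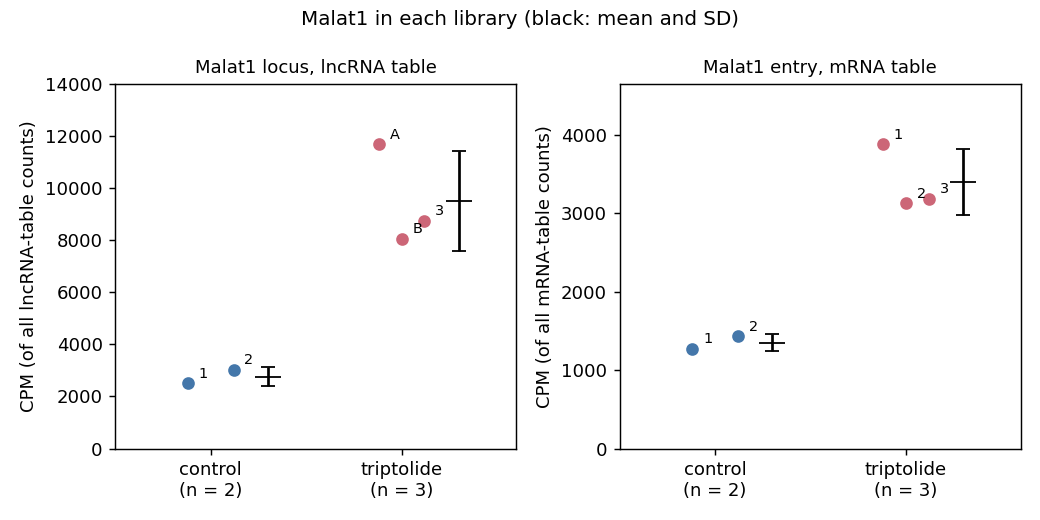
Malat1 in CPM of the lncRNA table (left, locus sum) and of the mRNA table (right, single entry), 1 point per library with its label, and black bars for the mean and SD of 2 control and 3 triptolide libraries. In both tables all 3 triptolide points lie above both controls, with the lowest at 8059 CPM on the left and 3132 CPM on the right.

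Control 1, control 2 and triptolide 3 can be matched between the tables by their headers. In these libraries the 2 lncRNA transcripts held 12.3%, 12.7% and 14.5% of the number of counts given to the single Malat1 entry. The lncRNA table thus captures a small part of the reads of Malat1, those assigned to 2 short assembled transcripts with 2 exons each.

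The 2 Malat1 transcripts cover opposite ends of the gene, and both were higher in triptolide. TCONS_00162968 spans the 5′ end (5801916 to 5802671) and had 1083 and 1685 counts in control 1 and 2 and 6572, 4872 and 4864 in triptolide A, B and 3. TCONS_00162966 spans the 3′ end (5795691 to 5797464), including the region of mascRNA, and had 1332 and 1554 counts in the same controls, against 4484, 3658 and 4143 after triptolide. For both pieces every triptolide library exceeded every control, as for 15.8% of the 13534 transcripts tested. By edgeR's test 9.89% of all transcripts had an unadjusted p under 0.05 and 0.0% passed after adjustment. The log2 fold change was 2.01 ± 0.28 (SE) for the 5′ piece and 1.53 ± 0.18 (SE) for the 3′ piece. The 5′ piece was the smaller of the pair in control 1 and the larger in all other libraries.

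The balance between the pieces also differed among libraries. The 5′ piece held 44.8% of Malat1 counts in control 1 (95% Clopper-Pearson interval 42.8% to 46.9%) and 52.0% in control 2 (50.3% to 53.8%). It held 59.4% (58.5% to 60.4%), 57.1% (56.1% to 58.2%) and 54.0% (53.0% to 55.0%) in triptolide A, B and 3. These intervals, which cover counting error only, overlapped for control 2 and triptolide 3 and for no other pair. The ratio of 5′ to 3′ counts averaged 0.949 ± 0.19 (SD, n = 2) in control and 1.32 ± 0.15 (SD, n = 3) in triptolide. The groups did not overlap, but the gap between the controls was larger than that between control 2 and triptolide 3. Of 208 loci with exactly 2 transcripts and at least 10 counts for each in every library, 30.8% had shares that did not overlap between the groups. Per length, in FPKM of the lncRNA table (fragments scaled to transcript length and library size), the 5′ piece was 1.10, 1.44 and 1.53 times the 3′ piece in control 1, control 2 and triptolide 3.

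On the other strand inside Malat1, XLOC_097999 (5797562 to 5798549) had 0 counts in all 5 libraries. A count of 0 allows up to 3 counts, that is 2.80 to 3.17 CPM depending on the library. Transcription from the strand opposite to Malat1 was therefore not detectable at this row and depth.

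Several properties of the libraries moved with the groups. The counts and FPKM of the Malat1 entry imply a mean fragment length of 289 bases for control 1 and 278 for control 2, against 257, 264 and 258 bases for triptolide 1, 2 and 3. Entries with spans in the same decile of the mRNA table as Malat1 (6875 to 10897 bases) had a median log2 fold change of -0.01, against 0.02 for all entries. Spans reached 4434882 bases and so include introns. Entries of this decile need not match Malat1 in RNA length, and their median cannot show an effect of RNA length. Few cell type markers could be read, and only through lncRNA loci at their genes and through circRNAs. Such RNAs need not follow the mRNA of the marker or its cell type. Marker mRNAs were not read, because entries of the mRNA table could not be paired with gene names. In bulk tissue fewer cells of a type also cannot be told apart from less RNA per cell. For meiotic prophase, 3 antisense loci at 3 of 8 marker genes summed to 405 and 527 CPM for the controls, against 167 to 174 CPM after triptolide. Most of this sum was the locus antisense to Topaz1 (341 and 446 CPM, against 114 to 120 CPM), while that antisense to Sycp1 had 61.1 and 74.7 CPM, against 44.7 to 53.8 CPM. The 21 circRNAs from 5 of these genes summed to 2266 and 3002 SRPBM (junction reads scaled to mapped reads) for the controls and 2103 to 2494 SRPBM after triptolide, so the groups overlapped. For elongating spermatids, 5 loci at 4 of 9 marker genes summed to 142 and 162 CPM for the controls, against 190 to 273 CPM after triptolide. Of these 5 loci 2 rose past an adjusted p of 0.05 in edgeR, that at Smcp and 1 of the 2 at Gapdhs, beside 5.01% of all tested loci. The other locus at Gapdhs had a log2 fold change of 0.52 ± 0.35 (SE). Those at Tnp2 and Spata18 had 0.57 ± 0.26 and -0.51 ± 0.38 (SE). The 2 circRNAs of this list went the other way, with a sum of 703 and 290 SRPBM for the controls, against 52 to 86 SRPBM after triptolide. At Leydig cell genes 1 of 7 had a locus, antisense to Star, with 52.9 and 57.9 CPM for the controls, against 33.8 to 42.7 CPM after triptolide. Antisense loci at marker genes of Sertoli cells, smooth muscle and endothelium stayed at 7.39 CPM or below in every library. These genes had 0 circRNAs, and marker genes of blood cells, spermatogonia and round spermatids had 0 loci. The 13 circRNAs of the round spermatid list came from 1 gene. They summed to 272 and 732 SRPBM for the controls and 433 to 669 SRPBM after triptolide, with overlapping groups. Blood cells had 2 circRNAs and spermatogonia had 1. The only locus of the epididymis and fat list, antisense to Adipoq, had 104 to 267 CPM with overlapping groups. The part of cell composition or fragment length in the difference at Malat1 was not tested.

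Frmd8os, next to Neat1 on the chromosome and named for the gene it overlaps, was expressed at a low level that did not separate the groups. The locus (chromosome 19, 5845623 to 5851388, plus strand) had 15 and 21 counts in control 1 and 2 and 13, 18 and 20 in triptolide A, B and 3. This is 17.6 ± 2.9 CPM (SD, n = 2) in control and 16.7 ± 2.9 CPM (SD, n = 3) in triptolide, with a log2 fold change of -0.07 ± 0.45 (SE). Its counts were divided unevenly among overlapping isoforms. TCONS_00158618, the longest, held 14.53 and 21 counts in the controls, against 13, 12.33 and 4.95 in triptolide A, B and 3. TCONS_00158619 held 0.47 and 0 counts in the controls, against 0, 5.67 and 15.05, so in triptolide 3 it held most of the locus (75.3%). TCONS_00158620 had 0 counts in every library. Since the isoforms overlap, the split of these few counts is an estimate of the authors' software and the locus sum is the firmer value.

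The locus antisense to Miat (chromosome 5, 112215461 to 112232320) was higher in triptolide, but by less than Malat1 and with unequal controls. It had 58 and 103 counts in control 1 and 2 and 121, 127 and 137 in triptolide A, B and 3. In CPM these were 60.1 (exact 95% Poisson interval 45.6 to 77.7) and 96.2 (78.5 to 117) in control. In triptolide A, B and 3 they were 128 (106 to 153), 120 (100.03 to 143) and 133 (112 to 157). The intervals of control 2 and of each triptolide library overlapped, and those of control 1 lay below all 3 triptolide intervals. The log2 fold change was 0.69 ± 0.24 (SE), and it was 0.38 without control 1 and 1.12 without control 2. Of all tested loci, 989 (14.4%) had a higher value. Beside the 19.7% of loci in which every triptolide library exceeded every control, 2 of the 3 member loci that passed the filter on low counts did so, Malat1 and this locus. Whether the authors counted by strand is not stated in the labels or headers. The row on the opposite strand inside Malat1 had 0 counts in every library. It is 1 assembled transcript with 2 exons, so its counts cannot show whether strand was used. The part of reads from Miat in the counts of the locus antisense to Miat was not tested.

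Within this locus the counts assigned to the known Gm26953 transcripts and to the new ones antisense to Miat varied differently among the libraries. The 3 Gm26953 transcripts summed to 37.3 and 72.4 CPM in control 1 and 2 and 107, 81.5 and 93.0 CPM in triptolide A, B and 3. The 2 new transcripts summed to 22.8 and 23.8 CPM for the controls, against 21.1, 38.5 and 40.1 CPM in triptolide A, B and 3. Sums of Gm26953 did not overlap between the groups, while triptolide A was below both controls for the new transcripts. Among single transcripts tested, 15.8% had every triptolide library above every control. TCONS_00241753 of Gm26953 overlaps both new transcripts, so the split of counts between them is an estimate of the authors' software. TCONS_00241753 and TCONS_00241757 had 14 and 0 counts in triptolide A and 1.22 and 20.18 in triptolide B. The sums and shares depend on this split, and the locus sum is the firmer value. Gm26953 held 62.1% and 75.3% of the locus in control 1 and 2, against 67.9% to 83.5% after triptolide, so the shares overlapped.

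TCONS_00241750, the shortest Gm26953 transcript (112215461 to 112218474), carried most of its counts. It had 27 and 63 counts in the controls, against 80, 79 and 61 in triptolide A, B and 3, with a log2 fold change of 0.74 ± 0.42 (SE) that was 0.27 without control 1 and 1.41 without control 2. Triptolide 3 was level with control 2 in CPM for this transcript (59.2 and 58.8). TCONS_00241753 (112217060 to 112229960) had 7 and 9.55 counts in the controls, against 14, 1.22 and 28.71, so it was both lowest and highest in triptolide libraries. TCONS_00241752 stayed at 7 counts or fewer in every library.
Of the new pair, TCONS_00241758 (112223615 to 112232320) had 22 and 23.3 counts in the controls, against 20, 20.6 and 34.74, and its log2 fold change of 0.19 was smaller than its SE of 0.44. TCONS_00241757 (112223527 to 112229960) had 0 and 2.15 counts in the controls, against 0, 20.18 and 6.55, and it did not pass the filter. In all, 6 of the 11 member transcripts passed that filter, of which 3 had every triptolide library above every control and 1, TCONS_00158618, had every one below. Over all transcripts tested these shares were 15.8% and 14.9%.

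**Figure D3:**
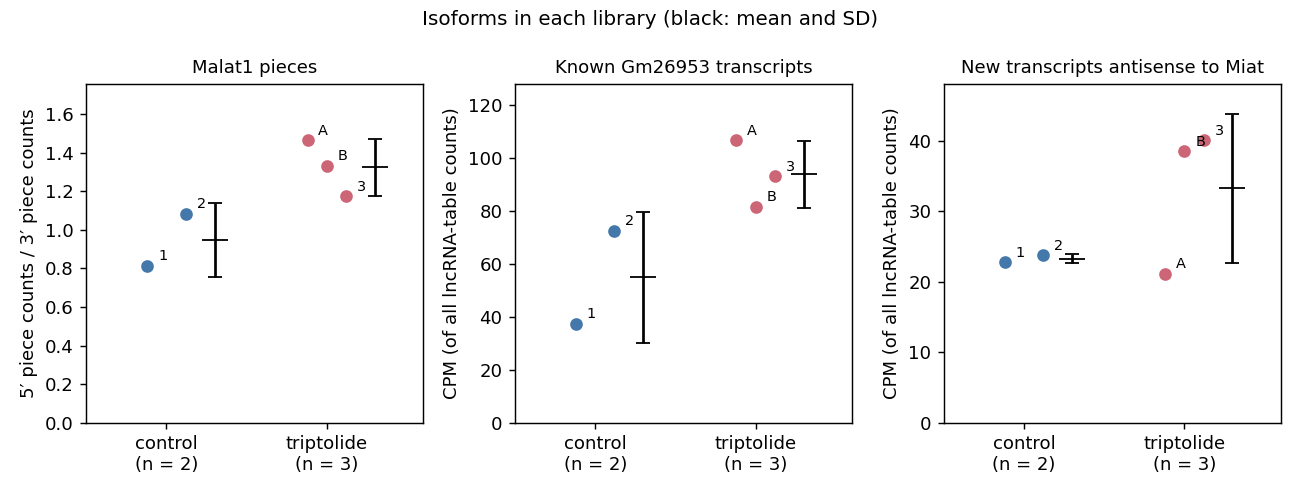
Left, ratio of 5′ to 3′ piece counts of Malat1 per library; middle and right, summed CPM of the known Gm26953 transcripts and of the new transcripts antisense to Miat. Points carry library labels, black bars are the mean and SD, and in the right panel triptolide A (21.1 CPM) lies below both controls. The split of counts between the middle and right panels is an estimate, because TCONS_00241753 of Gm26953 overlaps both new transcripts.

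Compared per length, Malat1 stood far above the other members in each library for which FPKM of the lncRNA table could be matched. The 5′ piece had 5522, 7368 and 20449 FPKM and the 3′ piece 5037, 5102 and 13327 FPKM in control 1, control 2 and triptolide 3. The next in all 3 libraries was TCONS_00241750 of Gm26953, with 86.4, 176 and 168 FPKM. TCONS_00158618 of Frmd8os followed in the controls with 64.3 and 80.2 FPKM and had 18.4 FPKM in triptolide 3, where TCONS_00158619 had 86.9 FPKM. TCONS_00241758, antisense to Miat, had 8.25, 7.84 and 12.1 FPKM. TCONS_00241750 was thus above each Frmd8os transcript within every one of these libraries. Its value in control 1 was nevertheless close to that of TCONS_00158618 in control 2.

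**Figure D4:**
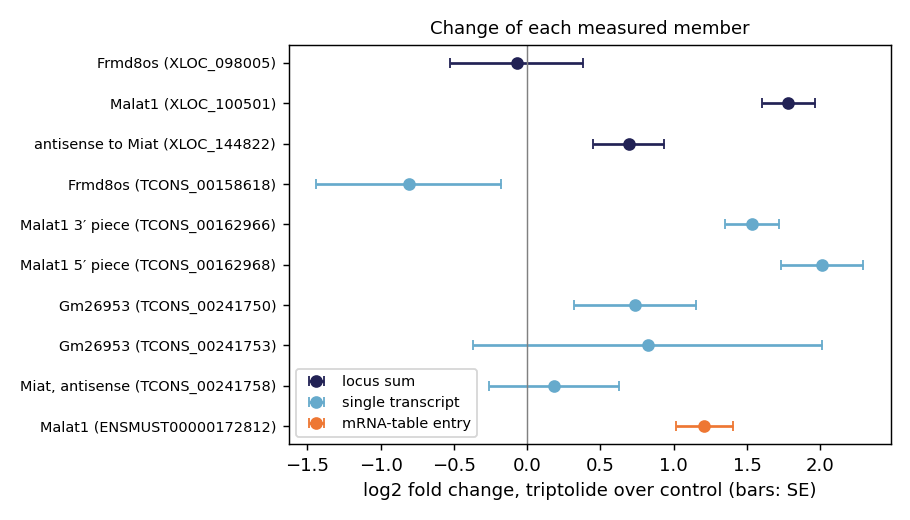
Log2 fold change of triptolide over control with its SE for each member that passed the filter on low counts, as locus sums, single lncRNA transcripts and the mRNA-table entry of Malat1. The Malat1 values lie between 1.21 and 2.01, and the Frmd8os locus lies at -0.07 with an SE of 0.45.

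Loci elsewhere in the genome with a pattern most like that of Malat1 were unnamed or little known. Likeness was the root mean square difference between log2(CPM + 1) profiles, each centred on its mean over the 5 libraries, for 2884 loci with a mean of at least 50 CPM. The closest was XLOC_167789 (chromosome 7, 101871213 to 101880727), a new intergenic locus, with a difference of 0.13 and means of 23.8 ± 3.5 CPM (SD, n = 2) and 92.8 ± 18.7 CPM (SD, n = 3). It was followed by a new locus antisense to Gm11631 on chromosome 11 (0.16), by XLOC_176689 on chromosome 8 (0.17), by a new locus antisense to Gm23483 on chromosome 16 (0.19) and by XLOC_068910 on chromosome 15 (0.22). The median difference over the 2884 loci was 0.93. These loci were picked for their likeness over the same 5 libraries, so no test applies.

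Of loci at the protein-coding neighbours of Malat1 and Neat1, 1 of 3 tested rose and 0 fell, and 7.27% of all tested loci were called in either direction. The one that rose lies antisense to Map3k11, which encodes a kinase of the JNK pathway (XLOC_100494, chromosome 19, 5701384 to 5704907). It had 11 counts in control 1, 12 in control 2 and 47, 45 and 35 in triptolide A, B and 3, all above the controls. Its log2 fold change was 1.88 ± 0.39 (SE), with an adjusted p of 0.0023 in edgeR's quasi-likelihood test, and the adjusted p stayed at 0.018 or below with any 1 library left out. Loci at Dpf2, a chromatin remodelling subunit, and at Rela, the NF-kappa B subunit, had log2 fold changes of 0.53 ± 0.55 and -0.20 ± 0.57 (SE) (adjusted p of 0.63 and 0.88, edgeR). A locus at Ltbp3 did not pass the filter. At the neighbours of Miat the only locus, at Crybb1, did not pass it either.

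Among other nuclear or well-known lncRNAs, 2 of 11 tested loci rose and 0 fell in edgeR, beside 5.01% and 2.26% of all tested loci. The median log2 fold change of the 11 was -0.17, beside 0.00 over all loci. Lncpint, a p53-induced lncRNA, had 155 counts in each control and 620, 566 and 786 in triptolide A, B and 3 (log2 fold change 2.10 ± 0.21 SE, adjusted p = 1.8e-07 in edgeR). Firre, which helps to organise nuclear architecture around the X chromosome (chromosome X, 50555744 to 50635321), had 105 and 53 counts in control 1 and 2 and 165, 116.01 and 168.99 in triptolide A, B and 3. Its log2 fold change was 0.93 ± 0.27 (SE) with an adjusted p of 0.032 in edgeR, and the call was lost without control 2 (0.37), without triptolide A (0.13), without triptolide 3 (0.13) and in DESeq2 (0.073). The remaining 9 loci did not pass, which does not show that they were alike in both groups. The most abundant was at Gm26917 (XLOC_085062), with 2719 and 9248 counts in the controls, against 5554, 4528 and 2496, a range within which no group stood apart. Nespas, an imprinted antisense RNA, had 820.61 and 907.01 counts in the controls, against 1156.26, 834.91 and 1450.63 (adjusted p = 0.21, edgeR). The second locus at Gm26917 (XLOC_088798) averaged 549 ± 227 and 365 ± 49.0 CPM (adjusted p = 0.084, edgeR).

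**Figure D5:**
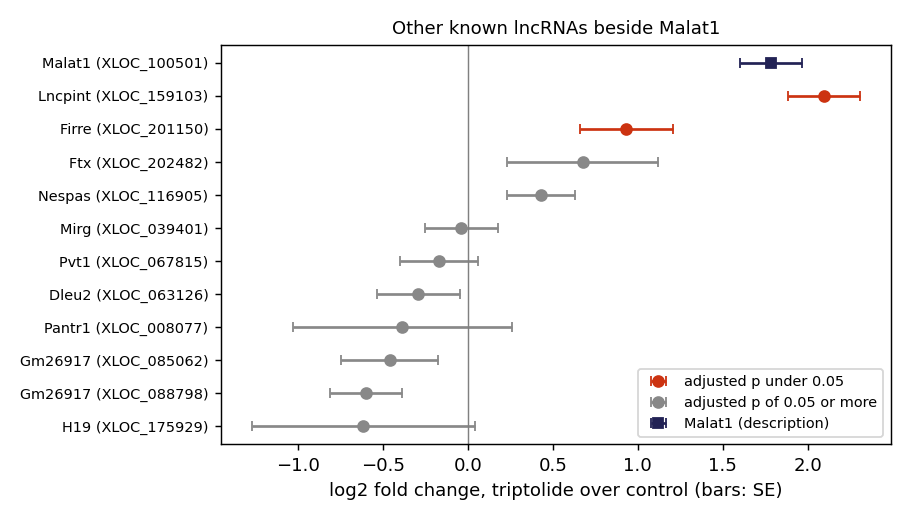
Log2 fold change of triptolide over control, with SE, for the 11 tested loci of other nuclear or well-known lncRNAs, beside Malat1. Lncpint (2.10) and Firre (0.93), in red, passed an adjusted p of 0.05, and the Malat1 value (1.78) is shown as a description.

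Genes of the bodies in which these RNAs reside could be read only through lncRNA loci on their opposite strand or beside them and through their circRNAs. For nuclear speckle and splicing genes, 0 of 6 tested loci passed in edgeR, with 2 at an unadjusted p under 0.05 (21.7% of all loci) and a median log2 fold change of 0.07. The most abundant, antisense to the splicing factor gene Srsf5, averaged 245 ± 9.2 CPM (SD, n = 2) and 168 ± 25.0 CPM (SD, n = 3), with no overlap (18.3% of loci lay lower in this way) and an adjusted p of 0.094 in edgeR. The other of the 2, named after its values were seen, lies antisense to Srsf11 and had 32 and 13 counts in the controls, against 10, 10 and 9 (adjusted p = 0.16, edgeR). Loci at Prpf6, a spliceosome component, and Son, a speckle scaffold, had log2 fold changes of 0.16 ± 0.38 and -0.02 ± 0.41 (SE).
For paraspeckle protein genes, 0 of 3 tested loci passed in edgeR, with 1 at an unadjusted p under 0.05. It lies antisense to Matr3, which encodes the nuclear matrix protein matrin 3, with 310 ± 19.3 CPM (SD, n = 2) in the controls, against 223 ± 57.9 CPM (SD, n = 3) after triptolide (adjusted p = 0.16, edgeR). The locus antisense to Taf15, which encodes an RNA-binding protein, had a log2 fold change of 0.19 ± 0.23 (SE). Of the genes for 3′ end processing, 1 locus was tested, at Mettl16, a protein that binds the Malat1 triple helix, with 26.0 ± 14.8 and 43.9 ± 13.7 CPM (adjusted p = 0.25, edgeR). The list of splicing factors bound by Miat had 0 loci.

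Of 11957 circRNAs in the deposited table, 0 overlapped a member locus or carried its symbol. From the speckle list 17 circRNAs were tested, from the paraspeckle list 13, from the Miat-bound factors 6, from 3′ end processing 4 and from the other lncRNAs 7, and 0 passed in limma. At an unadjusted p under 0.05 there were 1, 0, 0, 0 and 1, beside 6.6% of the 5457 circRNAs tested, of which 0 passed in all. The 2 were circRNAs of Srsf11, a splicing factor (chromosome 3, 158016322 to 158026858), and of Rmst, a neural lncRNA (chromosome 10, 92075170 to 92109733). The former was listed at 43 and 16 SRPBM in control and the latter at 52 and 24, and both were listed at 0 in all 3 triptolide libraries. Both passed the filter, above 0 in at least 2 libraries, through the controls alone, so they had to differ between the groups and their p supports nothing. Among tested circRNAs 10.5% had every triptolide library below every control.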

How the data were processed

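RNA of mouse testis was measured in 5 libraries, 2 control and 3 triptolide. The authors deposited expected counts and FPKM per transcript for an lncRNA table and an mRNA table, per the file headers, and for circRNAs a score in whole numbers that is SRPBM by the name given to it. HISAT2 2.0.1, bedtools 2.17.0, HTSeq 0.6.1 and DESeq are named, without roles, in the submitters' processing notes, as is the build hg19. The positions are nevertheless mouse: 13128 of 13426 lncRNA rows (97.8%) with a RefSeq symbol overlap that gene in GRCm38.p6. FPKM of the lncRNA table deposited by the authors were used for control 1, control 2 and triptolide 3 only. Of its count columns, 2 share the header of triptolide 2 and were used as triptolide libraries A and B, and 2 FPKM columns were not used. Among circRNA columns, 3 share a header. Letters do not match between the tables.

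Totals were 947298 to 1071012 counts in the lncRNA table and 15442421 to 19539236 in the mRNA table. Counts, summed per locus or per transcript, were rounded and fitted with edgeR 4.0.16 in R 4.3.3 (filterByExpr, TMM, quasi-likelihood test, Benjamini-Hochberg over all features, threshold 0.05). The SE is the log2 fold change over the root of F. CPM used table totals without TMM. circRNAs above 0 in at least 2 libraries were fitted with limma 3.58.1 on log2(SRPBM + 16). The fits were also run on simulated data, where a minimum recovery of planted changes was required for lncRNA loci and circRNAs only. Replicate pairs differed by more than sampling noise (chi-square per degree of freedom of at least 4.03).

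Members, gene lists and tests were chosen with earlier results of these data known. Named genes are all members, every list locus that passed, up to 3 more per list by mean CPM, and the 5 loci most like Malat1. One list locus that this rule names is not reported here. Members under 10 counts are named too where they complete a locus, chosen after their values were seen. Alternatives were other scalings, no filter, DESeq2 1.42.0, limma, FPKM, a replicate block and leaving out each library.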

Additional observations from a re-analysis of the deposited data

How the results depend on the processing

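Under all 10 alternatives the log2 fold change of the Malat1 locus stayed between 1.59 and 1.97, that of its 5′ piece between 1.75 and 2.31 and that of its 3′ piece between 1.41 and 1.65. The Malat1 entry of the mRNA table stayed between 1.09 and 1.33 under 13 alternatives. The sign of the Frmd8os locus was not stable (-0.25 to 0.15 with 1 library left out), nor was that of TCONS_00241758 (-0.11 to 0.34). The locus antisense to Miat ranged from 0.38 to 1.12 with 1 library left out, and TCONS_00241750 from 0.27 to 1.41, the lowest without control 1 and the highest without control 2. The 5′ share of Malat1 counts, higher in triptolide by 8.42 percentage points, ranged from 4.83 to 12.0 points.

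The number of lncRNA loci called (501) ranged from 269 to 588 with 1 library left out, and that of list loci called from 2 to 5, against 3. Single lncRNA transcripts called were 0 in edgeR, with 1339 at an unadjusted p under 0.05, against 39 with no filter, 327 in DESeq2 and 3 in limma. Of mRNA-table entries 6 were called, against 8134 in DESeq2, 1081 in limma on log2(CPM + 1), 333 on log2(FPKM + 1), 945 on log2(FPKM + 0.1), 0 with the replicate block and 0 with any 1 library left out. The cause was not tested. Same-numbered mRNA libraries are linked only by their number, and correlations of their deviations from group means were -0.02 and 0.04. With 2 controls these deviations mirror each other, so the correlations cannot show whether same numbers mean pairs. With the replicate block the Malat1 entry had a log2 fold change of 1.27. That block left few degrees of freedom, so its 0 calls say little. Triptolide 3, with no control of its number, adds nothing to its contrast. The lncRNA columns carry no full numbering, so no block could be fitted there. The circRNA lists had 0 calls under all 7 alternatives run in limma, with 2 at an unadjusted p under 0.05 in the analysis reported. Using library totals alone moved the median of all mRNA-table entries from 0.02 to 0.14 (log2).

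Low counts limit what can be said of Frmd8os and of the transcripts antisense to Miat: at Frmd8os the exact 95% Poisson intervals of all 5 libraries overlapped.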
